A study of Mus musculus with 12 samples.

Results

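The nuclear-encoded subunits of the respiratory chain were taken from the deposited gene table by name, as the genes whose symbols begin with Nduf followed by a letter a, b, c, s or v and a digit, with Uqcr, with Cox4 to Cox8 or with Atp5. Assembly factors of the Ndufaf series were left out. The rule found 80 of the 41128 genes in the table. Complex I contributed 37 genes, complex III 8, complex IV 18 and complex V 17. The name rule also took in Cox7a2l, a factor of supercomplex assembly, and Atp5s, which is not a structural subunit of the ATP synthase, and it placed Ndufa4, now usually counted with complex IV, under complex I. The livers came from C57BL/6 mice born germ-free, with no other genotype or agent named. Germ-free (GF) mice stayed in sterile isolators. Conventionalized (CV) mice were littermates that left the isolators at weaning, at about 21 days, and were housed for 3 weeks on dirty bedding from other cages of the facility, so they received an undefined set of microbes. All mice were 6 weeks old. Each condition held 3 males and 3 females by the labels, with 1 library per mouse, and the comparison asked how exposure to microbes changed liver transcripts.

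Respiratory complexes sit in the inner mitochondrial membrane. Complex I oxidises NADH and complex III oxidises ubiquinol, complex IV passes the electrons to oxygen, all of them pump protons, and complex V, the ATP synthase, uses the proton gradient to make ATP. Most of the subunits are encoded in the nucleus, translated in the cytosol and imported, and they are assembled with a small set of subunits encoded by mitochondrial DNA. Hepatocytes are rich in mitochondria and use the chain to reoxidise the cofactors released by fatty acid oxidation and the citric acid cycle. Many subunit mRNAs are short and abundant.

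The libraries differed in composition along with condition. They held 5993619 to 15290835 reads. Mitochondrial ribosomal RNA took 9.36 to 16.4% of the reads in the GF libraries and 1.39 to 6.32% in the CV libraries, and nuclear protein-coding genes took 24.3 to 50.8% and 73.9 to 92.2%. The summed value of the nuclear-retained RNAs Malat1, Neat1, Xist, Meg3 and Kcnq1ot1 was 72302 to 122858 in GF and 2157 to 16472 in CV libraries. The library labelled CV male 3 had 0 reads from Y-linked genes, against at least 796 in the other male libraries, and expressed Xist at 2382, so it went against its sex label. It was kept, and the main counts that rest on it are also given without it. Hepatocyte markers were abundant in every library, and on the deposited scale 8 of 12 were higher in CV livers, where 32.3% of all genes tested were higher and 28.7% lower. Kupffer and myeloid markers were higher for 4 of 8, blood and lymphocyte markers were lower for 5 of 6, endothelial markers were lower for 2 of 6, stellate markers were 1 higher and 1 lower of 6, and no bile duct marker of 5 was called. Scaled to nuclear protein-coding reads, hepatocyte markers were 3 higher and 2 lower, Kupffer markers 1 and 1, endothelial markers 0 and 4 and stellate markers 0 and 1. Scaled to all reads, these counts were 10 and 0, 7 and 0, 1 and 1, and 5 and 0, and bile duct markers were 2 and 0. Such scalings shift all genes of a library alike, and the shares of all genes called on them are not given here. Blood and lymphocyte markers were lower for 5 of 6 on each of these scales. No muscle marker was abundant enough to test, with a summed value of 4.48 to 22.7 over 15 genes of which 7 had no read in any library. In whole tissue, fewer cells of a type and less RNA per cell cannot be told apart, and the part of these differences in the results below was not tested.

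Most respiratory chain transcripts tested were higher in CV than in GF livers on the deposited scale. Over both sexes, 50 of the 72 subunits abundant enough to test were higher, none was lower, and 22 were not called (limma on log2(value + 1), adjusted p under 0.05), where 32.3% of all 11782 genes tested were called higher and 28.7% lower. The called subunits rose by 1.50-fold to 4.86-fold. Called higher were 25 of 36 tested members of complex I, 6 of 8 of complex III, 7 of 11 of complex IV and 12 of 17 of complex V, and the median log2 changes of the complexes were 0.98, 0.99, 0.94 and 1.10, beside a median of 0.07 over all genes tested. In 22 of the 72 members every CV library lay above every GF library, where 15.6% of all genes did so, and without CV male 3 this held for 22 members and 17.7% of all genes. Within the GF libraries the medians of all 4 complexes were highest in GF male 2 and lowest in GF female 3. As centred log2 values, those of GF male 2 were 0.64, 0.52, 0.84 and 0.54 for complexes I, III, IV and V. They lay above those of CV male 1 (0.16, 0.014, 0.064 and 0.19) and CV female 1 (0.10, -0.043, -0.12 and 0.31). The complex medians of single libraries thus overlapped between the conditions. Summed over all members, the share of nuclear protein-coding reads was 1.78, 2.73 and 2.12% in GF males, 1.43, 2.01 and 1.08% in GF females, 1.77, 2.71 and 2.92% in CV males and 1.86, 2.13 and 2.24% in CV females. These shares overlapped between the conditions.

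The choice of scale set how many members were called. Scaled to all reads, 69 members were higher and none lower, with a median over all genes of 0.62. Scaled to nuclear protein-coding reads alone, 30 were higher and 4 lower, with a median over all genes of -0.59. The 4 called lower on that scale were Ndufb2, Uqcrq, Cox7c and Atp5e, and 20 of the 50 called before lost their call, among them Ndufa4, Cox6a1, Ndufs1 and Atp5g1. As deposited, the members' median lay 0.90 above that of all genes, and such scalings leave this distance nearly as it is by construction, since they shift all genes of a library alike. The shares of all genes called on these scales are not given here, so these counts of members stand without a background. With CV male 3 left out, 48 members were higher, where 32.0% of all genes were, and none lower. With the mitochondrial ribosomal RNA share as a covariate no member and no gene of the 11782 was called, and the medians of the complexes stayed positive. The 4 groups accounted for 93.5% of the variance of this share, so the fit could not separate it from condition. With the log2 of the share, a fit added after the data were seen, 0 members and 139 of all genes were called.

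**Figure D1:**
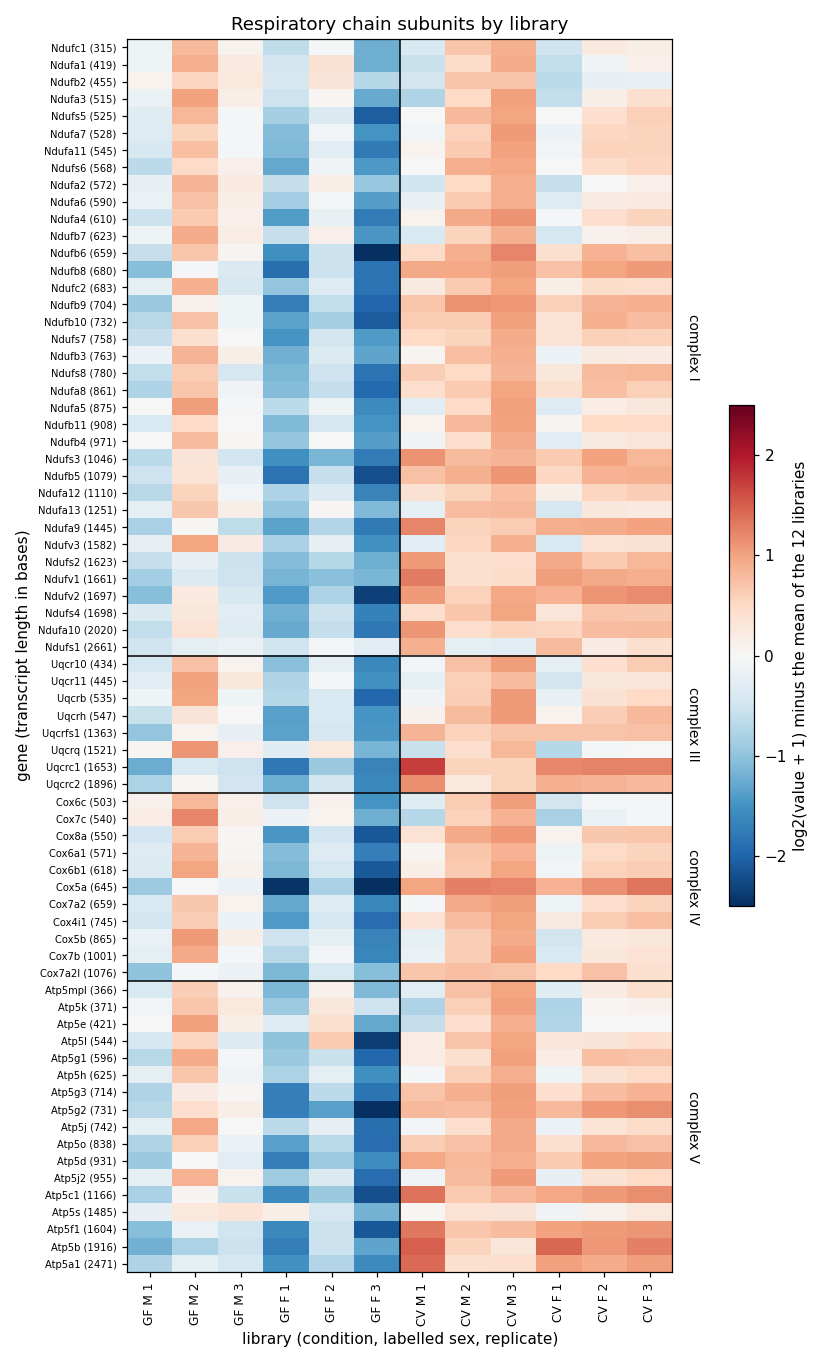
Heat map of the 72 tested subunits (rows, by complex and then by transcript length in bases, given in parentheses) in the 12 libraries (columns), coloured by log2(value + 1) minus the gene's mean over the libraries. CV columns are mostly red and GF columns mostly blue, GF male 2 is the reddest GF column, GF female 3 is the bluest, and in CV male 1 and CV female 1 the longer members stand above the shorter ones.

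Complex I, the NADH dehydrogenase, was higher across its catalytic core. All 7 nuclear-encoded core subunits, which carry the flavin and the iron-sulfur clusters, were called higher over both sexes, with log2 changes from 0.59 to 1.92 and a median of 1.44. Of the 29 other tested members, which surround the core, 18 were higher, with a median of 0.93. The largest change was in Ndufv2 (ENSMUSG00000024099, chromosome 17, 66078638 to 66101559, minus strand), a core subunit that binds an iron-sulfur cluster. Its normalised values (reads divided by the library's size factor, and given for replicates 1 to 3 of each group throughout) were 364, 902 and 578 in GF males, 1595, 1135 and 1495 in CV males, 284, 447 and 149.5 in GF females and 1385, 1637 and 1733 in CV females. All 6 CV libraries lay above all 6 GF libraries, and the log2 change was 1.92 ± 0.26 (limma, adjusted p = 1.3e-05), where ± gives the standard error, or 3.78-fold. Ndufb8, an accessory subunit of the membrane arm, read 257, 516 and 419 in GF males, 1027, 1045 and 1109 in CV males, 145, 367 and 148 in GF females and 889.6, 1065 and 1124 in CV females. No library of one condition overlapped the other, and the log2 change was 1.91 ± 0.23 (limma, adjusted p = 6.0e-06). Ndufv1, the subunit that binds the flavin and takes electrons from NADH, changed by 1.69 ± 0.18 (limma, adjusted p = 2.2e-06), and Ndufs3 by 1.76 ± 0.19 (limma, adjusted p = 2.4e-06). Ndufs1, the longest member at 2661 bases and the largest core subunit, changed least of the core, by 0.59 ± 0.21 (limma, adjusted p = 0.023), with values 314, 374 and 395 in GF males, 821, 376 and 365 in CV males, 314, 428 and 366 in GF females and 772, 511 and 590.1 in CV females. Within CV livers replicate 1 of each sex was the highest, and CV males 2 and 3 lay within the range of the GF libraries.

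At the other end of complex I, Ndufb2 (ENSMUSG00000002416, chromosome 6, 39592574 to 39603382, plus strand), an accessory subunit, read 229, 314 and 258 in GF males, 156, 354 and 354 in CV males, 163, 269 and 132 in GF females and 138, 186 and 191 in CV females. The groups overlapped in both sexes, and the log2 change of -0.03 ± 0.23 (limma, adjusted p = 0.92) did not pass the test. Ndufa1, an accessory subunit encoded on the X chromosome and needed for assembly, read 1977, 4014 and 2537 in GF males, 1459, 2951 and 4047 in CV males, 1550.3, 2782 and 920.1 in GF females and 1396, 2009 and 2331 in CV females. They overlapped too, and the log2 change was 0.09 ± 0.30 (limma, adjusted p = 0.82). Ndufa4 had the highest level per length of the complex, with a mean of 3988 per kilobase in GF and 7281 in CV libraries. Its values were 2052, 4662 and 3258 in GF males, 3172, 5733 and 6488 in CV males, 1126, 2609 and 887 in GF females and 2874, 3977 and 4404 in CV females. They separated the conditions in females but not in males, and over both sexes the log2 change was 1.03 ± 0.29 (limma, adjusted p = 0.0055). Scaled to nuclear protein-coding reads it was 0.35 (limma, adjusted p = 0.25) and not called. The 11 complex I members not called were Ndufv3, Ndufa6, Ndufb4, Ndufa13, Ndufa5, Ndufc1, Ndufb7, Ndufa3, Ndufa2, Ndufa1 and Ndufb2, with log2 changes from -0.03 to 0.51.

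Complex III, the cytochrome bc1 complex, was higher in its large subunits and in some of its small ones. Uqcrc1 and Uqcrc2, the core proteins on the matrix side, and Uqcrfs1, the Rieske iron-sulfur protein that carries electrons to cytochrome c1, were all called higher in males, in females and over both sexes. Uqcrc1 (ENSMUSG00000025651, chromosome 9, 108936633 to 108949623, plus strand) showed the largest change of the complex, with values 719, 1317 and 1202 in GF males, 5680.2, 2515 and 2515 in CV males, 494, 899 and 537 in GF females and 3932, 4061 and 4018 in CV females. CV male 1 stood above the other CV males, and the lowest CV library was still above the highest GF library. The log2 change was 2.17 ± 0.24 (limma, adjusted p = 2.9e-06), or 4.51-fold. Uqcrc2 read 457, 814 and 568 in GF males, 1789, 951 and 1164 in CV males, 343, 583 and 261 in GF females and 1467, 1434 and 1403 in CV females, again without overlap, and changed by 1.51 ± 0.22 (limma, adjusted p = 3.1e-05). Uqcrfs1 changed by 1.44 ± 0.22 (limma, adjusted p = 3.9e-05). Among the 5 small subunits, Uqcrh, the hinge protein beside cytochrome c1, changed by 1.15 ± 0.24 (limma, adjusted p = 6.1e-04), Uqcr10 by 0.83 ± 0.27 (limma, adjusted p = 0.015) and Uqcrb by 0.76 ± 0.29 (limma, adjusted p = 0.033), and no call was made for the remaining pair. By the assigned transcript lengths, Uqcr11 had the highest level per length of the complex and of all members, at 7116 per kilobase in GF and 8674 in CV libraries. Its values were 2647, 6397 and 3862 in GF males, 2738, 4838 and 5479 in CV males, 1902, 3078 and 1114 in GF females and 2301, 3851 and 3952 in CV females, which overlapped, and the log2 change was 0.43 ± 0.29 (limma, adjusted p = 0.21). Uqcrq, a small accessory subunit, read 5561, 11481 and 5911 in GF males, 3641, 7204 and 9609 in CV males, 4381, 6413 and 2392 in GF females and 3289, 5221 and 5329 in CV females. GF male 2 held the highest value of all 12 libraries, and the log2 change was -0.02 ± 0.30 (limma, adjusted p = 0.95). Uqcrq was assigned a transcript of 1521 bases although its coding part is only 246 bases, so its length and its level per length are uncertain. Its rank below Uqcr11 per length is uncertain too.

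Complex IV, cytochrome c oxidase, held both the largest change of all members and the lowest. Cox5a (ENSMUSG00000000088, chromosome 9, 57521274 to 57532426, plus strand) encodes a subunit on the matrix side of the enzyme and read 209.5, 389.9 and 354 in GF males, 783, 944 and 910.3 in CV males, 70.9, 223 and 67.1 in GF females and 721, 873 and 992 in CV females. CV libraries lay between 721 and 992 in both sexes, above every GF library, and the GF females spread from 67.1 to 223. The log2 change was 2.28 ± 0.26 (limma, adjusted p = 3.8e-06), or 4.86-fold. Cox8a, one of the smallest subunits, read 1276, 2756 and 1854 in GF males, 2275, 3446 and 3779 in CV males, 651, 1279 and 406 in GF females and 1901, 2833 and 2876 in CV females. The conditions overlapped in males only, and the log2 change was 1.28 ± 0.27 (limma, adjusted p = 6.9e-04). Cox7a2l, the supercomplex factor, changed by 1.26 ± 0.20 (limma, adjusted p = 5.5e-05) without any overlap. Cox4i1, which takes part in the regulation of the enzyme by ATP, read 2029, 4257 and 2501 in GF males, 3566, 4748 and 5467 in CV males, 1045, 2053 and 738 in GF females and 3241, 4280.4 and 4675 in CV females and changed by 1.24 ± 0.26 (limma, adjusted p = 6.2e-04). Cox6b1 changed by 0.98 ± 0.29 (limma, adjusted p = 0.0076). Cox7a2 read 1116, 2310.3 and 1531 in GF males, 1411, 2789 and 2973 in CV males, 596, 1165 and 466 in GF females and 1325, 1952 and 2139.8 in CV females and changed by 0.94 ± 0.27 (limma, adjusted p = 0.006). Cox6a1 was the most abundant per length, at 5347 per kilobase in GF and 8425 in CV libraries. Its values were 2819.7, 6279 and 3692 in GF males, 3661, 5643 and 6361 in CV males, 1642, 2814 and 1073 in GF females and 3208, 4870.2 and 5122 in CV females, with overlap in males only, and the log2 change of 0.84 ± 0.27 (limma, adjusted p = 0.013) lost its call once the length trend was removed (adjusted p = 0.14) and when scaled to nuclear protein-coding reads, where it was 0.15 (limma, adjusted p = 0.58). Cox7b, Cox5b, Cox6c and Cox7c were not called. Cox6c read 2490.2, 4109.5 and 2509.8 in GF males, 1873, 3579 and 4775 in CV males, 1603, 2471 and 817 in GF females and 1680.3, 2221 and 2242 in CV females, with overlap in both sexes, and its log2 change was 0.28 ± 0.28 (limma, adjusted p = 0.4). Cox7c had values 1323, 2715 and 1304 in GF males, 707, 1751 and 2139 in CV males, 1048, 1242 and 498 in GF females and 661, 1044 and 1150.0 in CV females. GF male 2 was again the highest of the 12, and the log2 change was -0.09 ± 0.30 (limma, adjusted p = 0.81).

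Of the isoforms of complex IV, nearly all reads came from the ubiquitous forms. Cox6a2, Cox7a1 and Cox8b are forms of heart and skeletal muscle, Cox4i2 is a form of lung, and Cox6b2, Cox7b2 and Cox8c are known from testis. Over all 12 libraries, Cox4i2 had 12 reads, Cox6a2 had 5, Cox6b2 had 44, Cox7a1 had 136, Cox8b had 2, and Cox7b2 and Cox8c had 0. Their ubiquitous partners Cox4i1, Cox6a1, Cox6b1, Cox7a2, Cox8a and Cox7b had 24240 to 57695 reads each. Per length, the ubiquitous partner made up at least 98.5% of its family in every library. Cox7a1 was the muscle isoform with the most signal, at values of 0 to 10.6 in GF and 6.25 to 14.8 in CV libraries. These 7 genes and Ndufa4l2, an isoform related to Ndufa4 with values of 1.92 to 14.6, were the 8 members below the minimum mean value of 10, and limma was not run on them. The filter of edgeR kept Cox7a1, which it called higher (log2 change 1.40, adjusted p = 0.027). For the 2 genes at 0 reads, the limit that a count of 0 allows was 3 reads in a library.

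Complex V was higher across most of its catalytic head. Atp5a1, Atp5b, Atp5c1 and Atp5d, the alpha, beta, gamma and delta subunits of the F1 part, were called higher in males, in females and over both sexes, with log2 changes over both sexes from 1.75 to 2.04. Atp5b (ENSMUSG00000025393, chromosome 10, 128083273 to 128090391, plus strand) encodes the subunit that forms ATP, and its values were 1658, 2210.5 and 2640.2 in GF males, 10784, 5622 and 4692 in CV males, 1156, 2636 and 1526 in GF females and 10365, 8096 and 9158 in CV females. Each CV value was above each GF value, and the log2 change was 2.04 ± 0.25 (limma, adjusted p = 6.7e-06), or 4.11-fold. Atp5c1, the central shaft, read 669, 1234 and 795 in GF males, 3019.7, 1855 and 2051 in CV males, 389, 614 and 255 in GF females and 2308, 2447 and 2631 in CV females, again without overlap, and changed by 2.01 ± 0.23 (limma, adjusted p = 3.1e-06). Atp5e, the fifth and smallest subunit of the head, differed from these. It read 1208, 2493 and 1372 in GF males, 808, 1635 and 2295 in CV males, 979.7, 1609 and 498 in GF females and 728, 1217 and 1222 in CV females, with overlap in both sexes, and its log2 change was 0.00 ± 0.31 (limma, adjusted p = 0.99). Of the 4 members of the peripheral stalk, Atp5f1 changed by 2.00 ± 0.25 (limma, adjusted p = 6.2e-06), Atp5o by 1.41 ± 0.24 (limma, adjusted p = 1.1e-04) and Atp5h by 0.73 ± 0.25 (limma, adjusted p = 0.018), and Atp5j, at 0.65 ± 0.29 (limma, adjusted p = 0.063), was not called.

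Atp5g1, Atp5g2 and Atp5g3 encode the same mature c subunit of the proton-driven ring with different import sequences, and all of them were called higher. Atp5g3 was the most abundant member of the complex per length, at 2954 per kilobase in GF and 7704 in CV libraries. Its values were 1889, 3673 and 3229.7 in GF males, 5175, 5838 and 6550.4 in CV males, 965, 2003 and 895 in GF females and 4241, 5442 and 5759 in CV females. They did not overlap, and the log2 change was 1.57 ± 0.24 (limma, adjusted p = 3.9e-05). Atp5g1 changed by 1.10 ± 0.29 (limma, adjusted p = 0.0034) and Atp5g2 by 1.89 ± 0.23 (limma, adjusted p = 5.4e-06). Per length, Atp5g3 supplied 50.3 to 65.7% of the 3 transcripts in GF and 63.0 to 70.4% in CV libraries, Atp5g1 33.2 to 48.3% and 27.5 to 35.0%, and Atp5g2 1.04 to 1.98% and 1.75 to 2.42%. Atp5g2 and Atp5g1 have near-identical copies elsewhere in the genome, so their levels are less certain. Of the 4 small membrane subunits, Atp5j2 at 0.81 ± 0.28 (limma, adjusted p = 0.02) and Atp5l at 0.98 ± 0.37 (limma, adjusted p = 0.032) were called. Atp5l has 9 near-identical copies, the most of any member, which may have taken reads from it. Atp5mpl, at 0.59 ± 0.27 (limma, adjusted p = 0.07), was not called. Atp5k, another of these subunits, read 438, 739.9 and 549.9 in GF males, 266, 693 and 934 in CV males, 245, 561 and 322 in GF females and 269, 474 and 495 in CV females, with overlap in both sexes and a log2 change of 0.08 ± 0.29 (limma, adjusted p = 0.83). Atp5s, at 0.34 ± 0.22 (limma, adjusted p = 0.2), was not called.

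**Figure D2:**
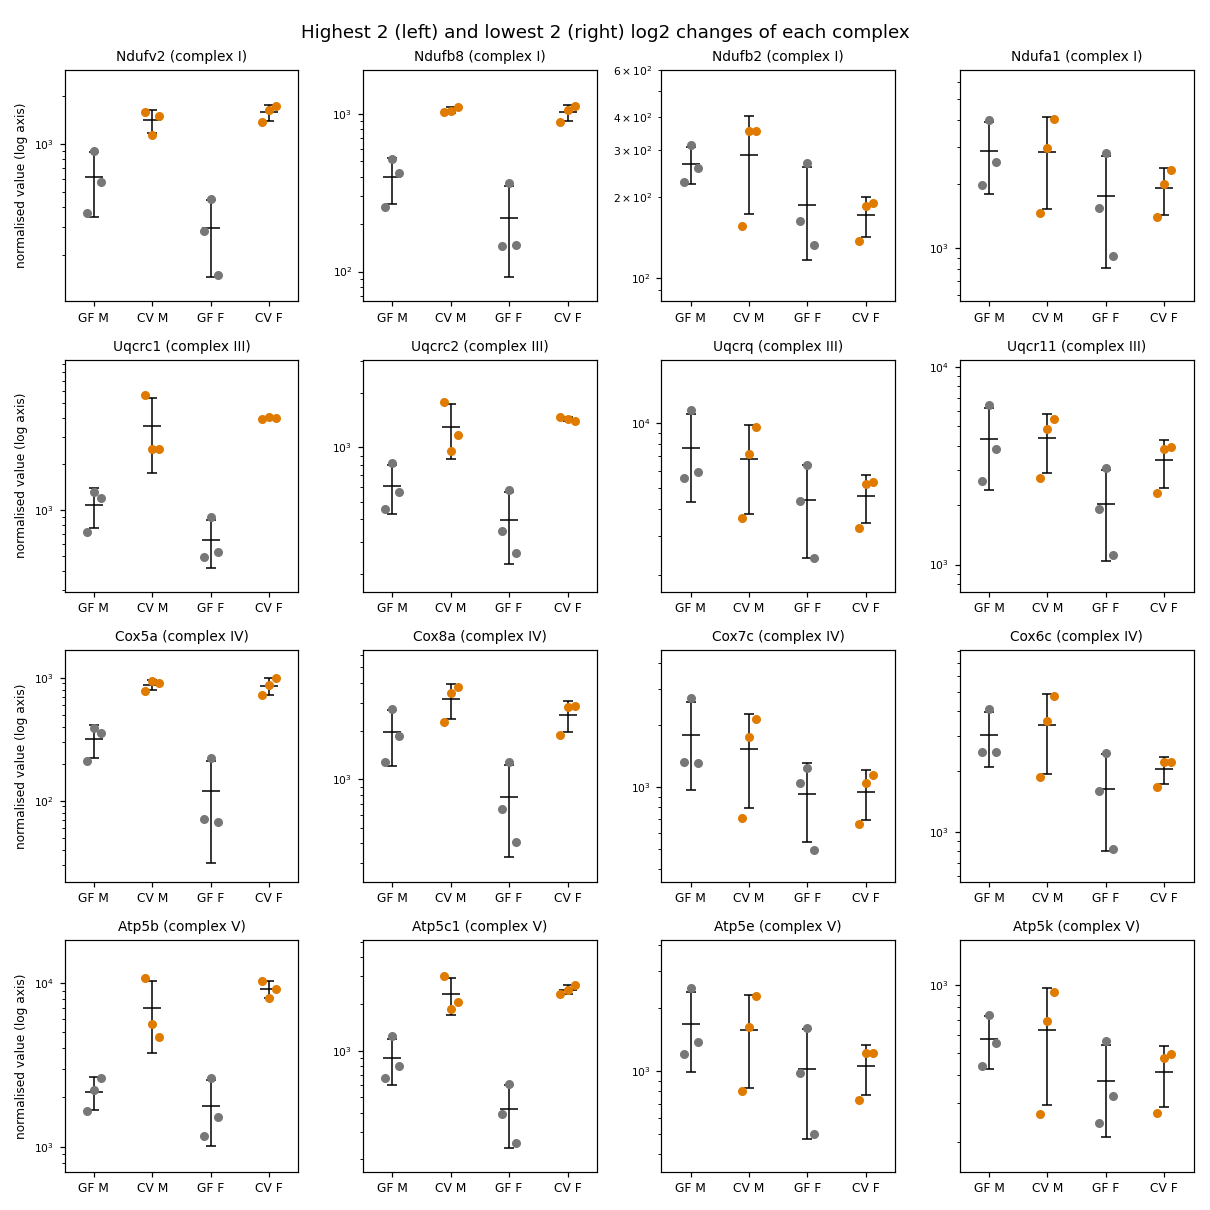
Normalised values on a log axis of the 2 subunits with the highest (left columns) and the 2 with the lowest (right columns) log2 change in each complex, in GF (grey) and CV (orange) males (M) and females (F). Points are libraries and the bars are the mean ± SD (n = 3). On the left the CV points stand above the GF points, apart from an overlap of Cox8a in males, and on the right they overlap.

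Exons of 26 members overlap exons of a gene on the other strand and those of 5 members overlap a gene on the same strand, and 13 members have a near-identical copy. The kit keeps strand, but the setting used for counting is not given in the sources used here. Ndufb8, Ndufb9 and Ndufb2 share exons with unnamed or antisense genes, Ndufs1 with Eef1b2, and Atp5j with Gabpa, so their counts are less certain. Of the 39 tested members with neither an overlap nor a copy, 25 were higher and none lower.

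Transcript length went with the size of the change. Among the 72 members, the log2 change over both sexes correlated with log2 length at a Pearson r of 0.46 and a Spearman rho of 0.50, and with coding length at 0.61 and 0.67. These are descriptions across genes that share the 12 libraries. Among the other 11659 genes with a length the relation ran the other way, at -0.31 and -0.39. The members were short, with a median of 737 bases against 2850 over all genes tested. Under 600 bases, 11 of 23 members were higher with a median of 0.59, and other genes of that length had a median of 0.05 with 16.9% higher. From 600 to 1000 bases, 21 of 26 members were higher with a median of 1.11, beside a median of 0.75 with 54.0% higher for other genes. From 1000 to 1500 bases, 7 of 10 members and 58.4% of other genes were higher, with medians of 1.35 and 0.78. From 1500 to 3000 bases, 11 of 13 members and 41.1% of other genes were higher, with medians of 1.51 and 0.33. In each length class the members had the higher median. In the members' whole range of 315 to 2661 bases, 47.2% of all genes tested were higher and 16.2% lower.

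The uncalled subunits were shorter on the median. The 22 members not called had a median length of 581 bases and a median coding length of 274.5 bases, against 760.5 and 493.5 bases for the 50 called. When the trend with length and GC content was removed from each library, 45 members were higher and 2 lower, where 30.9% of all genes were higher and 26.2% lower. Of the 50 called before, 43 were still called higher. The 7 that lost the call were Ndufa12, Ndufa7, Ndufb11, Cox6a1, Atp5h, Atp5j2 and Atp5l. Ndufc1 and Atp5mpl, the 2 shortest members, gained one. Ndufb2 and Ndufa2 were called lower, with log2 changes of -0.42 (adjusted p = 0.015) and -0.35 (adjusted p = 0.043). The median over the members went from 0.98 to 0.50, with 0.46 for complex I, 0.74 for complex III, 0.41 for complex IV and 0.73 for complex V. The trend removal did not take away the relation among the members themselves, which stood at a Pearson r of 0.43 with log2 length. All core subunits of complexes I and III and Atp5a1, Atp5b, Atp5c1 and Atp5d were still called higher.

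**Figure D3:**
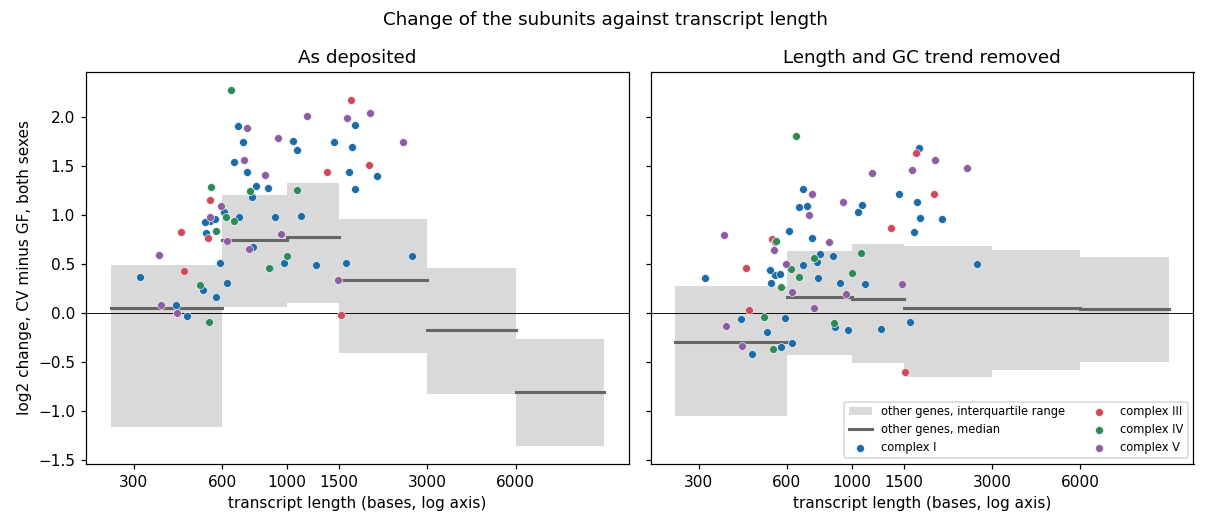
Log2 change over both sexes (CV minus GF) against transcript length on a log axis, as deposited (left) and after removal of the length and GC trend (right). Coloured points are the 72 tested subunits, and grey bars and bands are the median and the interquartile range of the other genes in each length class. Most members from 1500 to 3000 bases lie above the band in both panels, and those under 600 bases spread around and above it.

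The balance of longer and shorter members also differed between libraries of 1 group. The median centred log2 value of members of 1000 bases or more, minus that of shorter members, was -0.35, -0.65 and -0.37 in GF males, -0.13, -0.23 and 0.02 in GF females, 1.06, -0.10 and -0.27 in CV males and 0.82, 0.36 and 0.28 in CV females. CV male 1 and CV female 1, which held the most reads, stood highest. Within the GF libraries the members' share of nuclear protein-coding reads ran in the same order as the share that all other transcripts under 1000 bases took, which was 12.5, 19.4 and 14.9% in males and 9.09, 12.9 and 6.89% in females. In CV libraries that share was 11.6, 18.8 and 18.2% in males and 9.74, 12.8 and 12.8% in females. The part of this short-transcript share in the results was not tested.

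All calls within males and within females were toward higher values in CV livers. In males 22 of 72 members were higher and none lower, where 14.1% of all genes were higher and 15.4% lower, with 0.57 as the median log2 change of the members. In females 52 were higher and none lower, where 29.8% of all genes were higher and 26.0% lower, with 1.40 as the median of the members. All 22 male calls were also called in females. By complex, males had 10, 3, 2 and 7 members called in complexes I, III, IV and V, with medians of 0.62, 0.59, 0.35 and 0.71, and females had 27, 6, 7 and 12, with medians of 1.40, 1.41, 1.36 and 1.71. The male medians moved with single libraries. Without GF male 1 they were 0.33, 0.33, 0.079 and 0.53, without GF male 2 they were 0.91, 0.84, 0.72 and 1.02, and without CV male 3 they were 0.45, 0.37, 0.17 and 0.53 with 7, 3, 2 and 5 members called. Scaled to nuclear protein-coding reads they were 0.16, 0.13, -0.10 and 0.26, so that of complex IV changed sign. The male calls were mostly long transcripts, 16 of the 23 members of 1000 bases or more but 6 of the 49 shorter ones (13 and 4 without CV male 3), and the female calls were 19 and 33. Under 600 bases, 0 of 23 members and 2.16% of other genes were higher in males, and from 600 to 1000 bases 6 of 26 and 20.4%. From 1000 to 1500 bases it was 6 of 10 members and 32.6% of other genes, and from 1500 to 3000 bases 10 of 13 and 19.0%. In females these 4 classes held 10, 23, 7 and 12 members higher, beside 15.6, 52.8, 55.1 and 38.2% of other genes. CV males lay above GF males without overlap for 24 members, where 22.0% of all genes did (24 and 26.3% without CV male 3), and CV females above GF females for 48, where 34.0% did. In complex IV, Cox5a was 1 of the 2 members called in males (log2 change 1.51 ± 0.37 (limma, adjusted p = 0.0084)), with 3.05 ± 0.37 (limma, adjusted p = 1.5e-05) in females. Cox7a2l was the other, at 1.12 ± 0.28 (limma, adjusted p = 0.0089) in males and 1.40 ± 0.28 (limma, adjusted p = 6.1e-04) in females. Atp5g2 had the widest gap between the sexes, at 0.90 ± 0.32 (limma, adjusted p = 0.044) in males and 2.87 ± 0.32 (limma, adjusted p = 8.4e-06) in females.

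The difference between the sexes in this change did not pass the adjusted test with limma for any member. The female change was the larger for 71 of 72 members, with a median interaction of -0.84 on the log2 scale (male minus female change), and 19 members had an unadjusted p under 0.05, all toward the larger female change, where 11.7% of all genes had one. Library composition differed by labelled sex too. Mitochondrial ribosomal RNA took 11.5, 9.79 and 9.36% of reads in GF males and 15.1, 16.4 and 13.4% in GF females. In CV libraries it took 1.39, 5.89 and 6.32% in males and 1.51, 1.81 and 1.78% in females. The part of this in the sex comparisons here and below was not tested. These values depended on the scale, with 55 such members and a median interaction of -1.34 by all reads, 4 and -0.39 by nuclear protein-coding reads, and 13 and -0.47 with the length trend removed. Without CV male 3 there were 18, the median was -0.97 and the female change was the larger for all 72. With the replicate number as a block there were 26. For these other settings the share of all genes with an unadjusted p under 0.05 is not given here. Their counts of members stand without a background. After adjustment 0 of 72 members and 0 of 11782 genes were called with limma (lowest adjusted p of a member 0.42), edgeR called 0, and DESeq2 called 1 member. The males' count rested on single libraries. With CV male 3 left out it was 17, where 12.1% of all genes were higher, and without GF male 1 it was 10. Scaled to all reads it was 35, and scaled to nuclear protein-coding reads it was 14. Shares of all genes called on these scales are not given here.

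**Figure D4:**
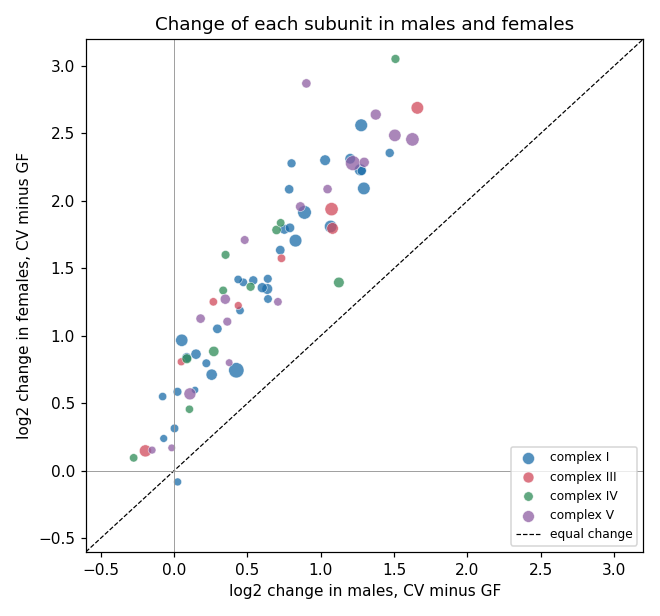
Log2 change (CV minus GF) of each of the 72 tested subunits in females against that in males, coloured by complex, with larger points for longer transcripts and a dashed line at equal change. All points but that of Ndufb2 lie above the line.

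Averaged over the conditions, members tended to be higher in males. The male-minus-female log2 difference was positive for 70 of 72 members, with medians of 0.64, 0.61, 0.78 and 0.60 in complexes I, III, IV and V beside 0.03 over all genes. No member passed the adjusted test with limma or edgeR, and 3 did with DESeq2, where 1.16% of all genes passed with limma. At an unadjusted p under 0.05 there were 51 members, all higher in males, against 11.0% of all genes. The median over all members was 0.65. With the length trend removed there were 27 such members and a median of 0.30, scaled to nuclear protein-coding reads 27 and 0.45, and with CV male 3 left out 34 and 0.55. With the replicate number as a block, 58 members had an unadjusted p under 0.05 and 1 passed the adjusted test. Shares of all genes for these other settings are not given here, so the counts stand without a background. Ndufs1 (-0.19) and Atp5b (-0.06) were the 2 members with a negative difference, and both are among the longest.

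Levels within a complex were far from equal. Per kilobase, the tested members of complex I had a median level of 788 in GF and 1344 in CV libraries, those of complex III 1531 and 2778, those of complex IV 2492 and 3184, and those of complex V 1152 and 2398. Levels spread most in complex V, with an SD over its members of 1.94 to 2.21 log2 units in GF and 2.00 to 2.08 in CV libraries. Its members here include Atp5s, which is not a structural subunit, and Atp5l, Atp5g1 and Atp5g2, whose levels are less certain. The SD without them was not computed. In complex III the SD was 1.30 to 1.73 in GF and 0.76 to 1.38 in CV libraries, so that its members lay closer together in most CV libraries. This SD includes Uqcrq, whose length is uncertain. Complex I had 1.34 to 1.45 and 1.13 to 1.41, and complex IV 1.49 to 1.85 and 1.35 to 1.58. After Uqcr11, the most abundant members per length were Cox6a1 and Ndufa4 by the assigned lengths, with the place of Uqcrq uncertain. Lowest over both conditions were Atp5s, at 36.5 per kilobase in GF and 44 in CV libraries, Atp5l, whose copies may share its reads, and Ndufb4, at 98.4 and 129. In GF libraries Atp5g2, at 81.4 per kilobase, lay below Ndufb4, and in CV libraries, at 241, it lay above.

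Other nuclear genes of oxidative metabolism were counted in the same fit. All 4 subunits of complex II, succinate dehydrogenase, were higher over both sexes and within each sex, led by Sdhd (2.75 ± 0.22, adjusted p = 3.7e-07), a membrane anchor, and Sdha (1.92 ± 0.28, adjusted p = 2.8e-05), the flavin subunit. All 4 carriers were higher, namely cytochrome c Cycs (0.89 ± 0.29, adjusted p = 0.015) and the electron transfer flavoprotein genes Etfa (1.82 ± 0.22, adjusted p = 4.9e-06), Etfb (1.04 ± 0.24, adjusted p = 0.0016) and Etfdh (1.92 ± 0.23, adjusted p = 4.9e-06). Subunits with other names gave 3 higher of 4, with Cyc1 (1.86 ± 0.19, adjusted p = 1.6e-06), cytochrome c1 of complex III, in front. All 13 citric acid cycle genes were higher, from 0.60 for Dlst to 2.11 for Suclg1. Of 14 import, channel and chaperone genes 11 were higher, among them Vdac1 (1.66 ± 0.23, adjusted p = 1.6e-05), the outer membrane channel. Coenzyme Q synthesis had 9 higher of 12, with Coq4 (1.55 ± 0.21, adjusted p = 1.7e-05) the highest. Assembly factors were higher for 10 of 14 of complex I and 1 of 5 of complex III. For complexes IV and V the counts were 10 of 17 and 1 of 4, beside 32.3% of all genes on the deposited scale. Scaled to all reads, which shifted the changes of all genes upward, the 4 counts were 13, 4, 14 and 4. With TMM factors complex V had 3. Ndufaf5 (1.75 ± 0.37, adjusted p = 6.5e-04), Uqcc1 (1.15 ± 0.23, adjusted p = 3.6e-04), Coa5 (1.42 ± 0.23, adjusted p = 6.7e-05) and Tmem70 (1.22 ± 0.23, adjusted p = 2.2e-04) changed most in those lists. None of these lists held a gene called lower on the deposited scale. Scaled to nuclear protein-coding reads, the 4 complex II genes stayed higher, the carriers were 2 higher and the citric acid cycle 8, with none lower in these lists. The other lists then held both directions or few calls, with coenzyme Q synthesis at 2 higher and 2 lower, import, channels and chaperones at 7 and 2, and the assembly factors of complexes I, III, IV and V at 2 and 3, 0 and 1, 3 and 3, and 1 and 0.

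Transcripts from mitochondrial DNA ran the other way. Of the 13 mitochondrially encoded subunits, 7 reached the minimum mean value, and all 7 were lower in CV livers, with a median log2 change of -1.90. Mt-Co1 of complex IV changed by -2.36 ± 0.49 (limma, adjusted p = 6.1e-04). The rest fell below that value, 2 of them without a read in any library, and whether the counting missed them was not tested. Both mitochondrial ribosomal RNAs were lower as well. Under each of the 3 other scalings all 9 of these genes were lower too, with medians of the 7 subunits from -2.59 to -1.34.

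**Figure D5:**
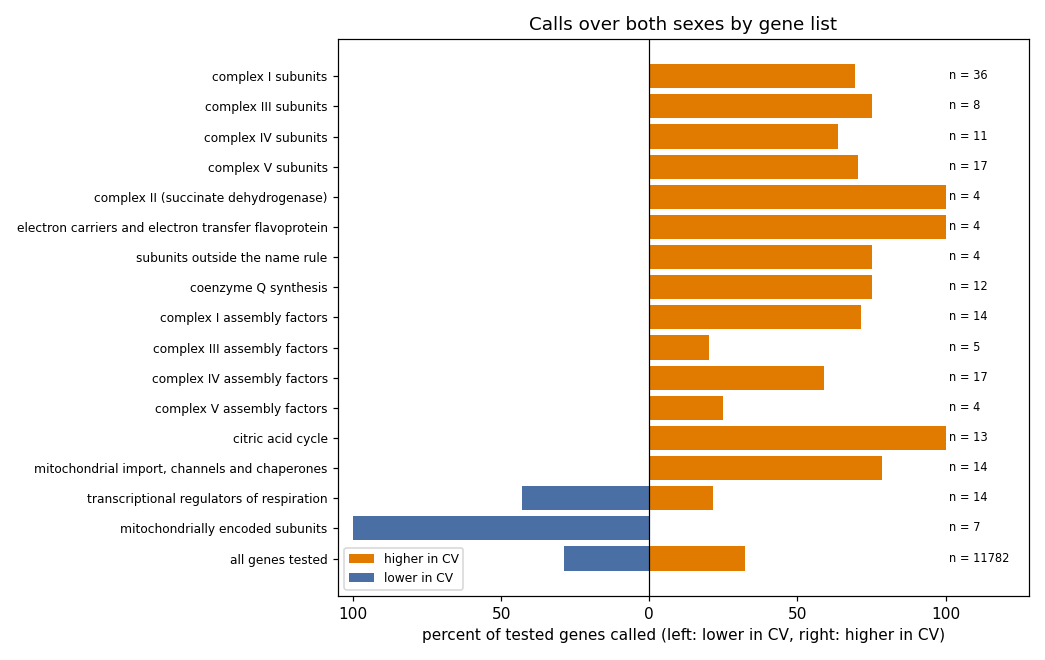
Percent of tested genes called higher (orange, right) or lower (blue, left) in CV livers over both sexes for the 4 complexes, the related lists and all genes tested, with the number tested at the right. The 4 complexes reach 63.6 to 75% higher with none lower, beside 32.3% higher and 28.7% lower over all genes, and the mitochondrially encoded subunits are all on the left.

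Factors that drive transcription of respiratory genes did not move as one group. Of 14 tested, 3 were higher and 6 lower (median log2 change -0.32). Tfam (0.96 ± 0.20, adjusted p = 5.4e-04), which packages and transcribes mitochondrial DNA, Tfb1m (0.83 ± 0.24, adjusted p = 0.0063), a methyltransferase of mitochondrial ribosomal RNA, and Gabpa (0.46 ± 0.18, adjusted p = 0.031), the DNA-binding subunit of nuclear respiratory factor 2, were higher. Ppargc1a (-2.36 ± 0.20, adjusted p = 4.9e-07), the coactivator of mitochondrial biogenesis, was lower, as were its relatives Ppargc1b (-0.88 ± 0.26, adjusted p = 0.0077) and Pprc1 (-1.17 ± 0.18, adjusted p = 4.2e-05). Gabpb2 (-1.35 ± 0.17, adjusted p = 9.0e-06) and Gabpb1 (-0.68 ± 0.23, adjusted p = 0.017), partners of Gabpa, and Nrf1 (-0.70 ± 0.19, adjusted p = 0.0053), nuclear respiratory factor 1, were lower too. Esrra, Ppara, Tfb2m, Polrmt and Yy1 were not called. Scaled to all reads, 6 were higher and 3 lower, and scaled to nuclear protein-coding reads 0 were higher and 8 lower, with Gabpa at -0.22 there. With the length trend removed, 2 were higher (Tfam and Gabpa) and the same 6 were lower. The Gabpa call is the less certain for the exons it shares with Atp5j.

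Promoter sequence from RefSeq (GRCm38.p6, 250 bases before to 50 after each start) was found for 65 of the 80 members and searched on both strands for exact motifs of factors known at respiratory genes. The core motif of nuclear respiratory factor 1, GCATGCGC, was in 9 of 65 members (13.8%) and in 3.05% of all 27025 genes with a window. The motif of the Gabpa family, CCGGAAG, was in 14 members (21.5%) and 9.93% of all genes. The YY1 motif AAGATGGCG was in 7 members (10.8%) and 1.64% of all genes. The SP1 motif GGGCGG was in 26 members (40.0%) and 38.2% of all genes. CCGGAAG and AAGATGGCG share the letters AAG and can overlap, though none does in the sequences printed here. Among members called and not called over both sexes, AAGATGGCG was in 5 of 43 and 2 of 18, CCGGAAG in 9 of 43 and 5 of 18, GCATGCGC in 6 of 43 and 3 of 18 and GGGCGG in 14 of 43 and 10 of 18. Promoters of the 2 members with the largest log2 changes and of 2 with changes near 0 are printed for comparison, with the motifs in capitals.
Cox5a, chr9:57520982-57521281, plus strand: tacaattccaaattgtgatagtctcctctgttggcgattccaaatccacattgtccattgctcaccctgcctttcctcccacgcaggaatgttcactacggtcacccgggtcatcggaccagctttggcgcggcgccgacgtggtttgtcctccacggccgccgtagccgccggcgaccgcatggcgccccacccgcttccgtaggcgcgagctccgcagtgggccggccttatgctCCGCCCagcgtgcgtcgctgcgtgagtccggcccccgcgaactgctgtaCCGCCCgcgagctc
Uqcrc1, chr9:108936398-108936697, plus strand: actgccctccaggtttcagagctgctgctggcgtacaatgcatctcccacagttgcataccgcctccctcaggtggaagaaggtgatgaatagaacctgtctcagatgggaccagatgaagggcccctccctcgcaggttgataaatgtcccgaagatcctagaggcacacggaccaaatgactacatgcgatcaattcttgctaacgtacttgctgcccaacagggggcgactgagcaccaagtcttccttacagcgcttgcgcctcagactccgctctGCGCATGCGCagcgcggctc
Atp5e, chr2:174464052-174464351, minus strand: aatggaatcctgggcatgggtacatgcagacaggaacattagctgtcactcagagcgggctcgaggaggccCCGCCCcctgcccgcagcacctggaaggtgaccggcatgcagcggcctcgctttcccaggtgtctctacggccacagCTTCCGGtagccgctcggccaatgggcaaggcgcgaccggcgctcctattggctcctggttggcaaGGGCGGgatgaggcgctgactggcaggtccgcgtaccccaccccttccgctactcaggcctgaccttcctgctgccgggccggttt
Cox7c, chr13:86046746-86047045, minus strand: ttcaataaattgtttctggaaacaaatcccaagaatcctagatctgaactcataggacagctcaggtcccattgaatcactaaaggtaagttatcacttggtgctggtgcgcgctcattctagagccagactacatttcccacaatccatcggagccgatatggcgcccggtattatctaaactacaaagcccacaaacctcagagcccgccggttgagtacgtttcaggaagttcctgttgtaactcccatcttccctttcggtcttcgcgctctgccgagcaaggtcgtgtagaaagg
Cox5a holds 2 SP1 motifs and Uqcrc1 holds GCATGCGC once on each strand, as 2 overlapping matches. Atp5e, whose log2 change was 0.00, holds 1 CCGGAAG motif and 2 SP1 motifs, and Cox7c holds none of the 4. A match is a run of letters and not evidence of binding, and its absence concerns this window only.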

How the data were processed

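RNA from the livers of 12 mice was sequenced on an Illumina HiSeq 3000 after preparation with a stranded TruSeq mRNA kit. The submitters' processing notes name HTSeq 0.6.1p1, DESeq2 and build GRCm38. The aligner, the annotation and the strand setting are not given in the sources used here. The paper supplied with the series describes another experiment and served for style alone. The authors deposited 1 table of normalised expression signal, which is each gene's read count divided by the library's size factor. All values (100%) were whole multiples of 1 read within 0.01 reads, so the reads were recovered, 5993619 to 15290835 per library. An absent gene allows up to 3 reads, and this covers counting error only.

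Groups and replicate numbers came from the sample titles. The labels give separate mice as replicates. Genes with a mean value of at least 10 (11782) were tested with limma 3.58.1 (R 4.3.3) on log2(value + 1), a scale that understates the change of low genes, with 1 mean per condition and labelled sex, a variance trend and Benjamini-Hochberg adjustment over all genes tested at a threshold of 0.05. Transcript length, coding length and GC content came from 1 principal transcript per gene in GENCODE release M21 (GRCm38), which also gave the coordinates. Copies were transcripts of at least 95% identity over at least 50% of the length. The length and GC trend was removed per library by a loess curve of span 0.3. Levels between genes are per kilobase. The nuclear respiratory factor 1 motif was shortened to its core after a form of 10 letters had been searched. The name rule, the lists and the tests were chosen with earlier results of these data known. Values are printed for the 2 highest and 2 lowest changes and the most abundant member of each complex, for the tissue isoforms, and for a few others chosen after their values were seen. The test over both sexes and the removal of the length trend were checked on simulated data. Few genes changed there, as many up as down, so the check does not cover a shift in library composition between the conditions. Alternatives were edgeR 4.0.16 and DESeq2 1.42.0 on the recovered reads (49 of 73 members and 7634 of 12555 genes called by edgeR over both sexes), other scalings, pseudocounts and filters, covariates, a replicate block, equal reads outside mitochondrial ribosomal RNA and leaving out each library.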

Additional observations from a re-analysis of the deposited data

Results flagged for a closer look

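Among 52 sets of 6 libraries (the printed members, the complex medians and the library measures, in GF and in CV libraries), Dixon's test at the 95% level set 1 library apart. This was Cox7c in GF male 2, at 2715, where the other 5 GF libraries lay between 498 and 1323. Chance does so in about 1 in 20 sets, and these sets share libraries. By the adjusted interaction test, no member's change differed between the sexes with limma or edgeR, and 1 did with DESeq2.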

How the results depend on the processing

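Over both sexes, 50 members were called, and the count called in either direction stayed between 34 and 69 under every alternative but the covariates. It stayed between 46 and 57 when 1 library was left out. The 34, scaled to nuclear protein-coding reads, were 30 higher and 4 lower, and the fit with the length and GC trend removed also held members called lower. Scaled to all reads, the count was 35 in males and 2 for the sex difference, and the median log2 changes of complexes I, III and V over both sexes were 1.54, 1.55 and 1.66, with 2.21, 2.22, 2.17 and 2.52 for complexes I, III, IV and V in females. Scaled to nuclear protein-coding reads, 14 members were called in males and 30 in females (29 higher, 1 lower). The medians of the 4 complexes were then 0.29, 0.31, 0.26 and 0.41 over both sexes and 0.49, 0.50, 0.45 and 0.80 in females, and 0.16 and 0.13 for complexes I and III in males. With the length and GC trend removed, the median of complex I was 0.46 over both sexes, and those of complexes I, IV and V in females were 0.67, 0.55 and 0.98. The same held with the replicate block.

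With the mitochondrial ribosomal RNA share as a covariate, 0 members were called over both sexes, in males or in females and 3 for the sex difference. The medians of the 4 complexes were 2.39, 2.32, 2.65 and 2.25 over both sexes, 1.39, 1.20, 1.53 and 1.34 in males and 3.41, 3.44, 3.89 and 3.38 in females, with standard errors over both sexes a median of 3.30 times as large. With its log2, added after the data were seen, 0 were called in each, and the medians were 1.68, 1.46, 1.79 and 1.72 over both sexes, 2.40, 2.20, 2.54 and 2.45 in females and 1.04 for complex IV in males. The cause of these changes was not tested. DESeq2 called 3 members for the sex difference and 1 for the interaction.

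The correlations of same-numbered GF and CV libraries were -0.19, -0.23 and -0.09 in males and -0.00, 0.02 and -0.17 in females. They gave no sign that the replicate numbers paired the conditions, but correlations of single libraries cannot exclude a pairing. Between same-numbered males and females the correlations were 0.06, 0.40 and 0.07 in GF and 0.19, 0.12 and 0.17 in CV libraries. Those were above 0.1 for all 3 numbers in CV libraries alone, a hint from the data and not the design. With the replicate block, 53 members were called over both sexes, 23 in males, 57 in females and 1 for the sex difference. Leaving out 1 library gave 10 to 28 called in males, 43 to 61 in females and 0 to 8 for the sex difference, with 8 without GF female 2 and 1 each without GF male 1 and CV male 1, and the 10 in males came without GF male 1.

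The members with changes near 0 turned sign with the setting. By all reads Ndufb2, Uqcrq and Cox7c stood at 0.53, 0.54 and 0.47, with TMM factors at 0.061, 0.066 and 3.8e-04, with the covariate at 2.11, 2.39 and 2.65 and with its log2 at 1.31, 1.40 and 1.60. By nuclear protein-coding reads these 3 stood at -0.71, -0.71 and -0.77 and were called lower with limma (adjusted p = 0.017, 0.035 and 0.032). There Ndufa1, Uqcr11, Cox6c, Atp5e and Atp5k stood at -0.60, -0.26, -0.40, -0.68 and -0.60, and Atp5e was called lower at an adjusted p of 0.04998. With the length trend removed, with or without the block, Ndufa1, Cox6c, Atp5e and Atp5k were at -0.058, -0.047, -0.33 and -0.14, and Uqcrq, at -0.61, was called lower with the block (adjusted p = 0.042). Atp5e was at -0.016 when thinned to equal reads outside mitochondrial ribosomal RNA, which leaves total and nuclear protein-coding reads unequal. It was at -0.073 with edgeR and -0.030 with DESeq2. With 1 library left out, Ndufb2 ranged from -0.14 to 0.17, Ndufa1 from -0.11 to 0.29, Uqcrq from -0.21 to 0.18, Cox7c from -0.29 to 0.15, Atp5e from -0.22 to 0.21 and Atp5k from -0.11 to 0.34. With 3 mice per group, the ribosomal RNA share and condition cannot be told apart.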
